A study of Mus musculus with 16 samples.

Results

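The genes described here are 10 meiosis and germline genes whose RNA was measured in mouse brain: Sycp1, Syce1, Syce2, Sycp2, Sycp3, Hormad1, Dmc1, Mael, Ddx4 and Dazl. They are 10 of the 55266 annotated genes with a transcript in the deposited matrices. Their 36 transcripts are part of 142435. The members were chosen by their measured levels in Upf3b-KO and Ctrl tissue: Sycp1 had been seen to be lower in Upf3b-KO cerebellum while other germ cell genes were higher. Their Upf3b-KO against Ctrl values are therefore a description, given with no p-value, and nothing is read from how many passed a threshold. The comparison of Ctrl cerebellum with Ctrl frontal cortex was not used to choose them and was tested, although its libraries also serve in the contrasts that were.

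These genes act in germ cells. At meiosis the homologous chromosomes are zipped together by the synaptonemal complex, in which SYCP1 forms the transverse filaments, SYCE1 and SYCE2 the central element, and SYCP2 and SYCP3 the lateral elements along each chromosome axis. HORMAD1 marks axes that are not yet paired, and DMC1 is the recombinase that joins a broken DNA end to the homologous chromosome. MAEL and DDX4 belong to the germ granule and the piRNA pathway, which silences transposons, and DAZL binds mRNAs and controls their translation in germ cells. In somatic tissue, brain included, most germline genes are kept silent by DNA methylation and repressive chromatin.

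UPF3B is a factor of nonsense-mediated decay (NMD), the pathway that degrades mRNAs whose stop codon lies well upstream of an exon junction, and its gene is on the X chromosome. Frontal cortex (FC) and cerebellum (Cere) of adult mice lacking Upf3b (Upf3b-KO) and of their littermates (Ctrl) were profiled by RNA-seq after removal of ribosomal RNA, with 4 libraries in each of the 4 groups and, as the study states, 4 mice of each genotype. Age beyond adult, sex, and which FC and Cere libraries came from the same mouse were not given in the sources used here. The libraries are whole tissue, so fewer cells of a type and less RNA per cell cannot be told apart.

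Of the 16 libraries, 15 held between 27660078 and 35238677 counts, and 3 counts there equal 0.0851 to 0.109 CPM, the count of a gene scaled to a library total of 1000000. Cere Upf3b-KO replicate 1 held 64981 counts, so 3 counts equal 46.2 CPM. Among the members it had 2 counts for Sycp1, 1 for Dazl and 0 for the other 8, and it was left out of every value below. Upf3b itself lay between 14.2 and 15.7 CPM in FC Ctrl and between 0.229 and 0.857 CPM in FC Upf3b-KO. In cerebellum Upf3b lay between 20.9 and 23.6 CPM in Ctrl and between 0.617 and 0.965 CPM in the 3 deep Upf3b-KO libraries. All 5 cortical markers were present in every FC group and 5 cerebellar markers in every Cere group. The labels do not tie a library to a mouse, so each p-value measures the spread between these libraries.

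The stretches around the starts of 4 members are printed first, because they show the 2 starts of Dazl and stretches with and without the motifs searched. Each runs from 220 bases before to 30 bases after the annotated start on the gene's own strand, in GRCm39, the build of the files, with starts from GENCODE. Capitals mark CACGTG and GCGGGAA, searched with TGACGTCA on both strands; TTCCCGC is GCGGGAA on the other strand. CACGTG is the E-box read by MAX and its partners, GCGGGAA is the core of a site read by E2F6, and TGACGTCA is the cyclic AMP response element. No matched stretch overlapped another. The Sycp1 stretch, chr3:102843426-102843675 on the minus strand, holds 1 E-box. Mael, on chr1:166066302-166066551 (minus strand), and Syce1, on chr7:140367780-140368029 (minus strand), are the members more than 2-fold higher in Upf3b-KO in both regions. Dazl-204 (chr17:50599891-50600140, minus strand) and Dazl-201 (chr17:50600635-50600884, minus strand) are transcripts of 1 gene with different first exons.
Sycp1-201: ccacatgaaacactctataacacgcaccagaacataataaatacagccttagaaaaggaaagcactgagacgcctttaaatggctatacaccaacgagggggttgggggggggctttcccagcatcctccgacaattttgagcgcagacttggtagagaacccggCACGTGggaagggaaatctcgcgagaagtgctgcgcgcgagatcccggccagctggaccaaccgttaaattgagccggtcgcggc
Mael-201: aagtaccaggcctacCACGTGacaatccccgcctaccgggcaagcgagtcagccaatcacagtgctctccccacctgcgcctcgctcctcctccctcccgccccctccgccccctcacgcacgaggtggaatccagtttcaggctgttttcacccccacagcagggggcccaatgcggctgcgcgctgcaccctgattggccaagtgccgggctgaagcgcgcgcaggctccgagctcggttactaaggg
Syce1-201: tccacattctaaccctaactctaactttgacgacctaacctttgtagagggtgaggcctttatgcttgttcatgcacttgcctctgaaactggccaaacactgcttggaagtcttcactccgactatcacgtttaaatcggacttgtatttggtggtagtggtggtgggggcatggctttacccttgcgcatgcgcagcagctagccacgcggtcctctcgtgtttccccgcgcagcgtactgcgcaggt
Dazl-204: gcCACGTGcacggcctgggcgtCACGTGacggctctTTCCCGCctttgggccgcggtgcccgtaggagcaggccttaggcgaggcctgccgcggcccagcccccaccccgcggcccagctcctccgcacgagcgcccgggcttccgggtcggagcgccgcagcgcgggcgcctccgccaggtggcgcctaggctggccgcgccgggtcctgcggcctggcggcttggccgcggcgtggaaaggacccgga
Dazl-201: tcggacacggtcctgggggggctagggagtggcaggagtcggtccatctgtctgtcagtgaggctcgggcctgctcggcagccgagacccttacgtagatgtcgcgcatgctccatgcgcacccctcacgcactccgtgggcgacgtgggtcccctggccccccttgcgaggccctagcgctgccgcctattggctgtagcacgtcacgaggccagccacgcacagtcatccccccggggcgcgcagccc

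CACGTG was found in 6 of the 10 members' stretches (Sycp1, Syce2, Sycp3, Hormad1, Mael and Dazl-204), and in 6.83% of the stretches of the same length at the starts of 21770 protein-coding genes. The starts were chosen by different rules. A member's start is that of its transcript with the largest sum of group means here, which for Sycp3 is Sycp3-203. The 21770 starts are those of the transcripts that the annotation calls canonical. GCGGGAA was found in 3 of 10 (Sycp3, Hormad1 and Dazl-204), beside 4.85% of all starts. TGACGTCA was found in 0 of 10, beside 2.27%. Syce1, Sycp2, Dmc1, Ddx4 and Dazl-201 held none of these letters in this window. The ratio of observed to expected CpG was 0.934 at Sycp1-201 and 0.938 at Dazl-204, above 89.3% and 89.5% of all starts, and 0.303 at Sycp2, where 33.4% of starts were lower. A match describes the letters only.

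**Figure D1:**
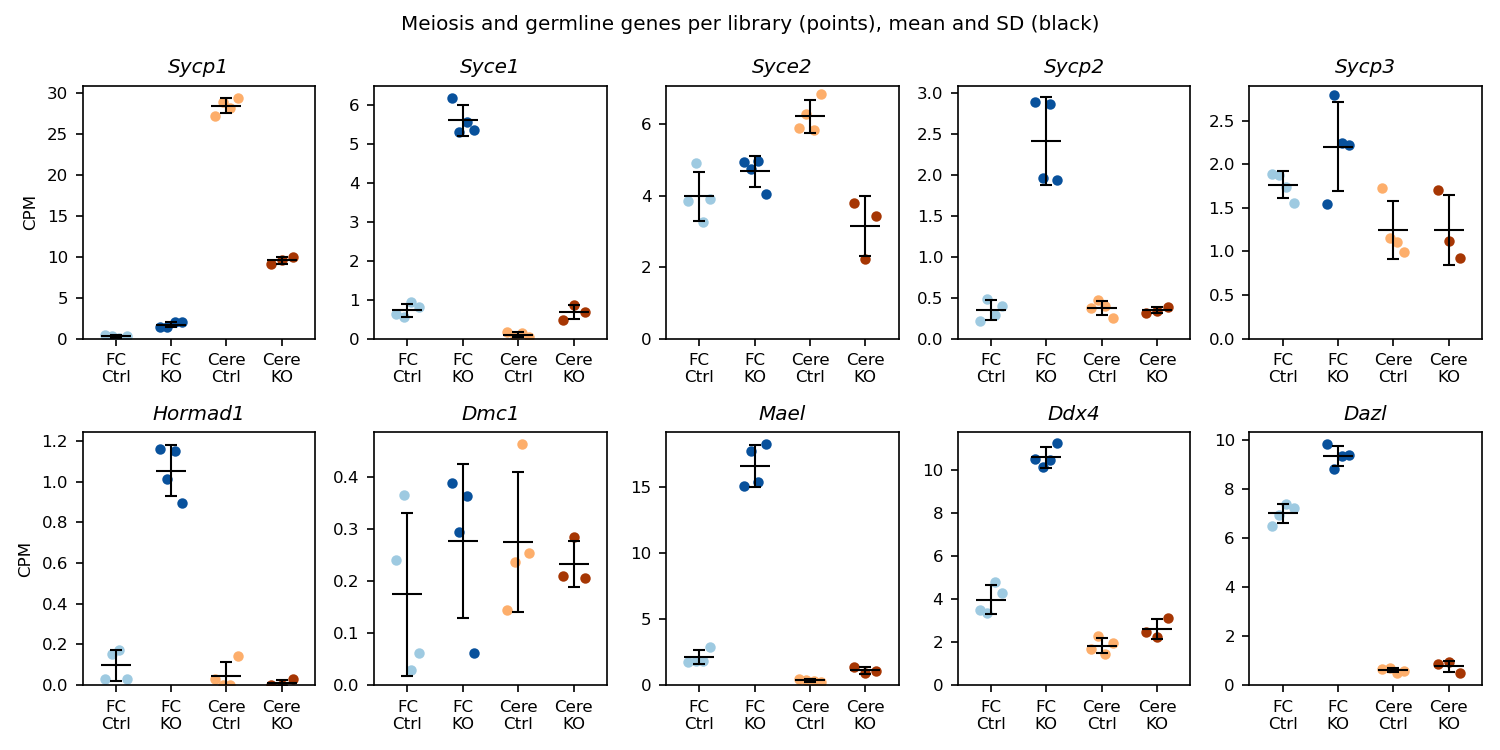
CPM of each gene in every deep library, grouped by region and genotype, with the group mean and SD in black; each panel has its own axis from 0. Sycp1 stands at 27.2 to 29.4 CPM in Cere Ctrl and at 9.04 to 9.96 CPM in Cere Upf3b-KO, whereas Mael is highest in FC Upf3b-KO, at 15.1 to 18.2 CPM.

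Sycp1 (ENSMUSG00000027855, chr3:102725709-102843455, minus strand), the transverse filament gene, was a cerebellar transcript in these mice. It read 27.2, 28.8, 28.2 and 29.4 CPM in the 4 Cere Ctrl libraries and 9.04, 9.59 and 9.96 CPM in Cere Upf3b-KO. FC Ctrl libraries read 0.390, 0.364, 0.0580 and 0.248 CPM, and FC Upf3b-KO libraries 1.37, 1.44, 2.01 and 1.97 CPM. The genotypes did not overlap in either region, and they lay in opposite order. The fitted log2 fold change of Upf3b-KO over Ctrl was -1.62 (SE 0.06) in cerebellum and 2.59 (SE 0.36) in FC. Cerebellum without Upf3b kept 33.6% of the Ctrl level, which was still above every FC library. The FC Ctrl values rest on 35 counts in 4 libraries, against 3587 counts in Cere Ctrl.

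Other RNAs of the cerebellum were lower in the same Cere Upf3b-KO libraries. The summed level of 5 cerebellar markers was 7239 to 7378 CPM in Cere Ctrl and 2854 to 2867 CPM in Cere Upf3b-KO, and each of the 5 was lower. Car8 and Calb1, which mark Purkinje cells, kept 34.9% and 38.8% of their Ctrl level. Pcp2, also of Purkinje cells, kept 38.1%, and Gabra6, of granule cells, kept 52.1%. Cbln1, a synaptic organiser released by granule cells, kept 51.6%. The part of these genes' cells in the Sycp1 value was not tested.

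The genes most like Sycp1 over the 15 deep libraries were Col18a1, Tprn, Syndig1, Zfyve28 and Kitl, with Pearson r of log2(CPM + 0.5) from 0.994 to 0.995 the search covering the 15227 genes that averaged 1 CPM or more. Col18a1, a basement membrane collagen, averaged 4.08 CPM in FC Ctrl, 8.23 in FC Upf3b-KO, 83.4 in Cere Ctrl and 40.0 in Cere Upf3b-KO. Kitl, the ligand of the KIT receptor, averaged 32.2, 48.4, 226.8 and 129.3 CPM in the same order. All 5 were lowest in FC Ctrl and highest in Cere Ctrl. Within a region r was 0.948 to 0.993 over the 8 FC libraries and 0.978 to 0.998 over the 7 Cere libraries. These points share libraries and the gap between genotypes, so r describes the pattern and carries no test.

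Syce1 (ENSMUSG00000025480, chr7:140356873-140367820, minus strand), a central element gene, had the opposite regional order. FC Ctrl libraries read 0.630, 0.546, 0.927 and 0.807 CPM and FC Upf3b-KO libraries 6.19, 5.33, 5.57 and 5.37 CPM. Cere Ctrl read 0.174, 0.0588, 0.132 and 0.0362 CPM, on 13 counts in all, and Cere Upf3b-KO read 0.489, 0.851 and 0.676 CPM. Upf3b-KO was above Ctrl in every library of both regions. The log2 fold change was 2.86 (SE 0.17) in FC and 2.63 (SE 0.52) in cerebellum.

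Syce2 (ENSMUSG00000003824, chr8:85598740-85614853, plus strand), the other central element gene, was the member that came closest to Sycp1 in direction in cerebellum. It read 5.90, 6.29, 5.84 and 6.83 CPM in Cere Ctrl and 3.80, 2.21 and 3.44 CPM in Cere Upf3b-KO, with no overlap, a log2 fold change of -1.04 (SE 0.16). In FC the genotypes overlapped, at 3.84, 4.91, 3.25 and 3.91 CPM in Ctrl and 4.94, 4.74, 4.98 and 4.04 CPM in Upf3b-KO, with a log2 fold change of 0.16 (SE 0.13). The cerebellar value lies at the 2-fold limit: it was -0.99 without Cere Ctrl replicate 4 and -0.83 without Cere Upf3b-KO replicate 3. In Syce2 transcripts 316 exon bases also belong to exons of Gcdh, an enzyme gene on the opposite strand that averaged 25.0 to 30.7 CPM, and how the counting used strand was not given in the sources used here.

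Sycp2 (ENSMUSG00000060445, chr2:177987076-178049478, minus strand), a lateral element gene, differed by genotype in FC. FC Ctrl read 0.210, 0.485, 0.290 and 0.403 CPM and FC Upf3b-KO 2.89, 1.96, 2.87 and 1.94 CPM, a log2 fold change of 2.71 (SE 0.28). In cerebellum Ctrl read 0.376, 0.470, 0.396 and 0.253 CPM and Upf3b-KO 0.314, 0.341 and 0.382 CPM, a log2 fold change of -0.17 (SE 0.43). The genotypes were apart in FC and overlapped in cerebellum.

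Sycp3 (ENSMUSG00000020059, chr10:88295431-88309099, plus strand), the other lateral element gene, overlapped between genotypes in both regions. It read 1.89, 1.88, 1.74 and 1.56 CPM in FC Ctrl and 1.55, 2.80, 2.24 and 2.22 CPM in FC Upf3b-KO. Cere Ctrl read 1.73, 1.15, 1.10 and 0.994 CPM and Cere Upf3b-KO 1.70, 1.12 and 0.929 CPM. The log2 fold changes were 0.24 (SE 0.19) in FC and -0.06 (SE 0.28) in cerebellum. Of the 1140 bases of Sycp3-201, 536 also lie in exons of Chpt1, a phospholipid synthesis gene on the opposite strand that averaged 115.2 to 330.4 CPM, so the Sycp3 level is uncertain.

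Hormad1 (ENSMUSG00000028109, chr3:95466938-95495179, plus strand), the axis gene, was read in FC Upf3b-KO and hardly elsewhere. FC Ctrl read 0.0300, 0.152, 0.174 and 0.0310 CPM, on 13 counts in 4 libraries, and FC Upf3b-KO 1.16, 1.01, 1.15 and 0.894 CPM. The log2 fold change was 3.31 (SE 0.45), and Hormad1 passed the low-count filter through its Upf3b-KO libraries. Cerebellum gave 5 counts in all 4 Ctrl libraries and 1 count in the 3 Upf3b-KO libraries, so no fold is given there.

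Dmc1 (ENSMUSG00000022429, chr15:79445691-79489351, minus strand), the recombinase gene, did not pass the low-count filter in any comparison. It read 0.240, 0.364, 0.0290 and 0.0621 CPM in FC Ctrl and 0.387, 0.294, 0.362 and 0.0617 CPM in FC Upf3b-KO. Cere Ctrl read 0.145, 0.235, 0.462 and 0.253 CPM and Cere Upf3b-KO 0.209, 0.284 and 0.206 CPM. The genotypes overlapped in both regions, and a difference was not detectable at this depth.

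Mael (ENSMUSG00000040629, chr1:166028770-166066331, minus strand), the piRNA pathway gene, had the highest level per length of the members in FC Upf3b-KO. FC Ctrl read 1.77, 1.85, 1.85 and 2.89 CPM and FC Upf3b-KO 15.1, 17.7, 15.4 and 18.2 CPM. Cere Ctrl read 0.492, 0.382, 0.297 and 0.217 CPM and Cere Upf3b-KO 1.40, 0.908 and 1.06 CPM. Upf3b-KO was above Ctrl in every library of both regions, with log2 fold changes of 2.91 (SE 0.13) in FC and 1.61 (SE 0.36) in cerebellum.

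Ddx4 (ENSMUSG00000021758, chr13:112734867-112789009, minus strand), the germ granule helicase, read 3.48, 3.33, 4.78 and 4.28 CPM in FC Ctrl and 10.5, 10.1, 10.4 and 11.2 CPM in FC Upf3b-KO. The FC genotypes were apart, with a log2 fold change of 1.34 (SE 0.11). In cerebellum Ctrl read 1.68, 2.26, 1.42 and 1.95 CPM and Upf3b-KO 2.48, 2.24 and 3.11 CPM, which overlap narrowly, with a log2 fold change of 0.46 (SE 0.19).

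Dazl (ENSMUSG00000010592, chr17:50586366-50600664, minus strand), the mRNA-binding member, was a transcript of the frontal cortex. FC Ctrl read 6.48, 6.94, 7.36 and 7.23 CPM and FC Upf3b-KO 9.82, 8.82, 9.33 and 9.37 CPM, apart but with a log2 fold change of only 0.34 (SE 0.09). Cere Ctrl read 0.665, 0.706, 0.495 and 0.579 CPM and Cere Upf3b-KO 0.838, 0.936 and 0.499 CPM, which overlap, with a log2 fold change of 0.25 (SE 0.34).

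A gene was called where its adjusted p was under 0.01 and its fold change over 2. These contrasts chose the members, so the counts that follow describe the choice and test nothing. In FC 9 members passed the low-count filter, of which 6 were called higher (Sycp1, Syce1, Sycp2, Hormad1, Mael and Ddx4) and 0 lower, where 9.16% of 18218 tested genes were called higher and 1.06% lower. In cerebellum 8 passed, of which 2 were called higher (Syce1 and Mael) and 2 lower (Sycp1 and Syce2), where 10.3% of 17785 tested genes were called higher and 2.86% lower. Hormad1, Sycp1 and Sycp2 in FC and Syce1 in cerebellum passed the filter only through their Upf3b-KO libraries, so the filter favoured a difference for them. The genes were gathered as falling (Sycp1) and rising (the others) in cerebellum, and by the values alone this description covers some of them: Syce1 and Mael lay above Ctrl without overlap, Syce2 lay below it, Sycp2, Sycp3, Ddx4 and Dazl overlapped, and Hormad1 and Dmc1 were too low to fit. Whether the Sycp1 change differed between regions was not tested.

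**Figure D2:**
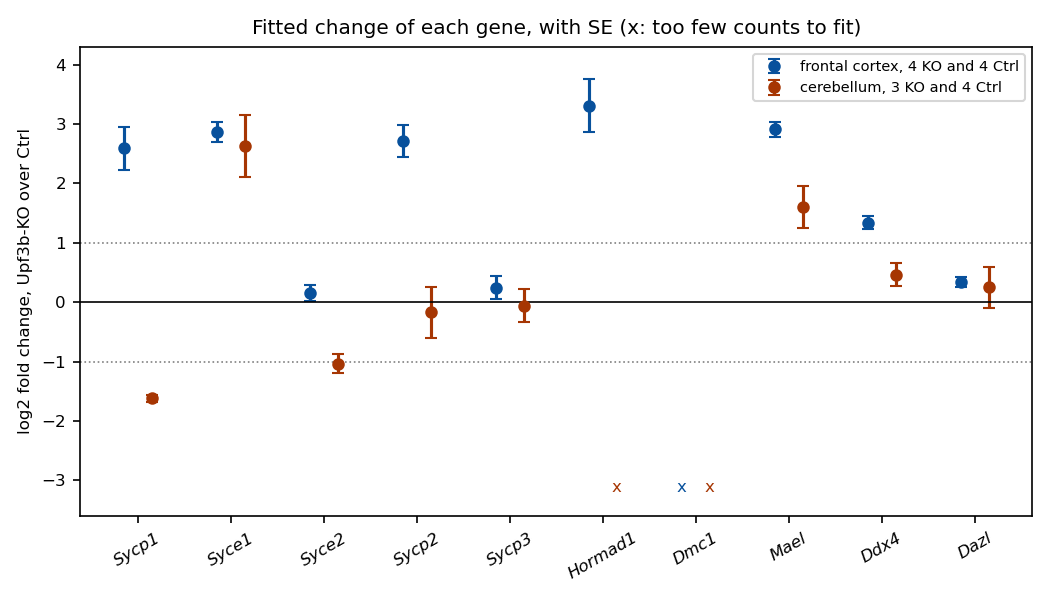
Fitted log2 fold change of Upf3b-KO over Ctrl for each gene in FC (blue) and cerebellum (brown), with its SE; dotted lines mark 2-fold and an x marks a gene with too few counts to fit. Sycp1 lies at 2.59 in FC and at -1.62 in cerebellum, on opposite sides of 0.

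The comparison of Ctrl regions asks where these genes are read in the normal brain. Sycp1 was 102.3-fold higher in Ctrl cerebellum than in Ctrl FC, a log2 fold change of 6.68 (SE 0.16). Dazl lay the other way, 11.8-fold lower in cerebellum, a log2 fold change of -3.56 (SE 0.15, adjusted p = 7.073e-15 by edgeR's quasi-likelihood test). The Ctrl regions did not overlap for either gene. The log2 fold change was -2.84 for Syce1 (SE 0.46) and -2.61 for Mael (SE 0.28). Sycp1 passed the low-count filter only through cerebellum, and Syce1 and Mael only through FC. The filter favoured a difference for these 3 genes, so they are given with no p-value. Dazl and Ddx4 passed in either region. Ddx4 was lower in cerebellum by less (-1.17, SE 0.17, adjusted p = 2.728e-06). Syce2 was higher in cerebellum but under the 2-fold limit (0.59, SE 0.12, adjusted p = 0.0002326).

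Sycp3 (-0.55, SE 0.22, adjusted p = 0.02625) and Sycp2 (0.07, SE 0.40, adjusted p = 0.8901) were not called, and Hormad1 and Dmc1 had too few counts to fit. In all, 1 of 8 members was called higher in cerebellum and 4 lower, where 9.18% of 17521 tested genes were called higher and 15.9% lower. Of these 5 calls, 3 are those that the filter favoured. The FC Ctrl and Cere Ctrl libraries serve in this comparison and in those of genotype, so the comparisons are not independent. With 4 Ctrl mice stated for both regions, the FC and Cere Ctrl libraries share mice, but which do was not given in the sources used here. They were fitted as separate libraries, so the p-values do not account for the sharing.

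Levels per length, as TPM (each transcript's count divided by its length, scaled to a total of 1000000), allow the members to be ordered within a group. In Cere Ctrl the order was led by Sycp1 at 20.1 ± 0.652 TPM (SD, n = 4), then Syce2 at 16.4 ± 1.77 and Sycp3 at 2.56 ± 0.621, with no overlap between these neighbours. The levels of Syce2 and Sycp3, and so their places in every group's order, are uncertain because of the exon bases they share with Gcdh and Chpt1. Ddx4 followed at 1.56 ± 0.317 TPM, apart from the rest, which ran from Dazl at 0.666 TPM to Hormad1 at 0.0640 TPM with each neighbour overlapping the next. In Cere Upf3b-KO Syce2 (8.48 ± 2.20 TPM, n = 3) and Sycp1 (6.46 ± 0.313) led the order, and their ranges overlapped.

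In FC Ctrl Syce2 led at 8.64 ± 2.77 TPM and overlapped Dazl at 6.28 ± 0.624. Sycp3, Ddx4 and Mael came next, at 3.72, 3.20 and 2.89 TPM, and overlapped in turn, whereas Syce1, Sycp1, Dmc1, Sycp2 and Hormad1 lay at 1.21 TPM or less. In FC Upf3b-KO Mael led at 23.0 ± 2.24 TPM, apart from Syce2 at 10.3 ± 1.25. Dazl, Ddx4 and Syce1 followed at 9.04, 8.53 and 7.66 TPM, each overlapping its neighbour. The lowest in FC Upf3b-KO was Dmc1, at 0.446 ± 0.384 TPM.

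Of the 36 transcripts, 23 reached a mean of 0.1 CPM in some group and 2, both of Hormad1, were at 0 in every deep library. A transcript's estimate shares the reads that several transcripts of a gene have in common, so a share is only as firm as the bases that tell the transcripts apart. Sycp1 is an example. Sycp1-201 differs from Sycp1-202 by 6 noncoding bases (chr3:102842976-102842981), and both have the same 2979 coding bases. Sycp1-201 took 80.5% to 94.4% of Sycp1 in Cere Ctrl, 65.6% to 96.8% in Cere Upf3b-KO and 0% in every FC Ctrl library. In FC Upf3b-KO it took 90.7% and 95.6% in replicates 2 and 4, and 0% in replicates 1 and 3, where Sycp1-202 took 95.5% and 95.7%. The sum over both is steadier than either. In cerebellum Sycp1-201 averaged 24.9 ± 2.36 CPM in Ctrl (SD, n = 4) and 7.62 ± 1.68 in Upf3b-KO (n = 3), and Sycp1-202 3.54 ± 2.02 and 1.91 ± 1.45.

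Of the members' transcripts, 3 have a stop codon more than 50 nt upstream of the last exon junction, a form that NMD recognises: Syce2-201 (176 nt), Sycp3-202 (266 nt) and Dmc1-204 (248 nt). Syce2-201, the most abundant of them, read 2.81, 3.19, 2.75 and 3.90 CPM in Cere Ctrl and 2.37, 1.40 and 1.81 CPM in Cere Upf3b-KO, lower in each Upf3b-KO library. As a share of Syce2 it was 47.1% to 57.1% in Cere Ctrl and 52.7% to 63.1% in Cere Upf3b-KO, which overlap. In FC Syce2-201 averaged 1.31 ± 0.811 CPM in Ctrl and 1.60 ± 0.366 in Upf3b-KO. The protein-coding Syce2-202 averaged 2.28 ± 0.539 CPM in Cere Ctrl and 0.875 ± 0.290 in Cere Upf3b-KO. Syce2-204, which has 18 more coding bases, read 0.106 to 1.15 CPM in FC Ctrl and 1.15 to 1.82 in FC Upf3b-KO. Sycp3-202 stayed at or below 0.335 CPM in every library, and Dmc1-204 averaged at most 0.0941 CPM in any group and was at 0 in both Upf3b-KO groups.

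Dazl was carried by Dazl-204, which begins at an alternative first exon (chr17:50599849-50599920). It took 92.4% to 100% of Dazl in FC Ctrl, 90.2% to 97.5% in FC Upf3b-KO, 78.7% to 100% in Cere Ctrl and 92.2% to 100% in Cere Upf3b-KO. Dazl-201, with its own first exon (chr17:50600435-50600664), was read in 2 libraries, FC Upf3b-KO replicates 2 and 4, at 0.432 and 0.687 CPM. Its first exon holds 3 coding bases and that of Dazl-204 holds 0, and the annotated coding length is 894 bases for Dazl-201 and 783 for Dazl-204. The printed stretch of Dazl-204 has both motifs and that of Dazl-201 neither. Dazl-202, Dazl-205 and Dazl-206 averaged at most 0.103, 0.138 and 0.107 CPM in any group.

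Ddx4-202, with 78 coding bases that Ddx4-201 lacks (chr13:112777684-112777761), took 73.3% to 100% of Ddx4 in FC Upf3b-KO and 40.6% to 100% in FC Ctrl. In Cere Ctrl its share ran from 0% to 78.5% and in Cere Upf3b-KO from 46.9% to 100%, so the split varied between replicates as widely as between groups. Sycp3-203 took 78.0% to 91.0% of Sycp3 in Cere Ctrl and 0% to 31.8% in FC Ctrl, with no overlap, and Sycp3-201 and Sycp3-202 shared the rest. The 124 bases that Sycp3-203 has and Sycp3-201 lacks (chr10:88308643-88308766) all lie in exons of Chpt1, which averaged 122.5 CPM in FC Ctrl and 330.4 CPM in Cere Ctrl. The part of Chpt1 reads in that share was not tested.

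**Figure D3:**
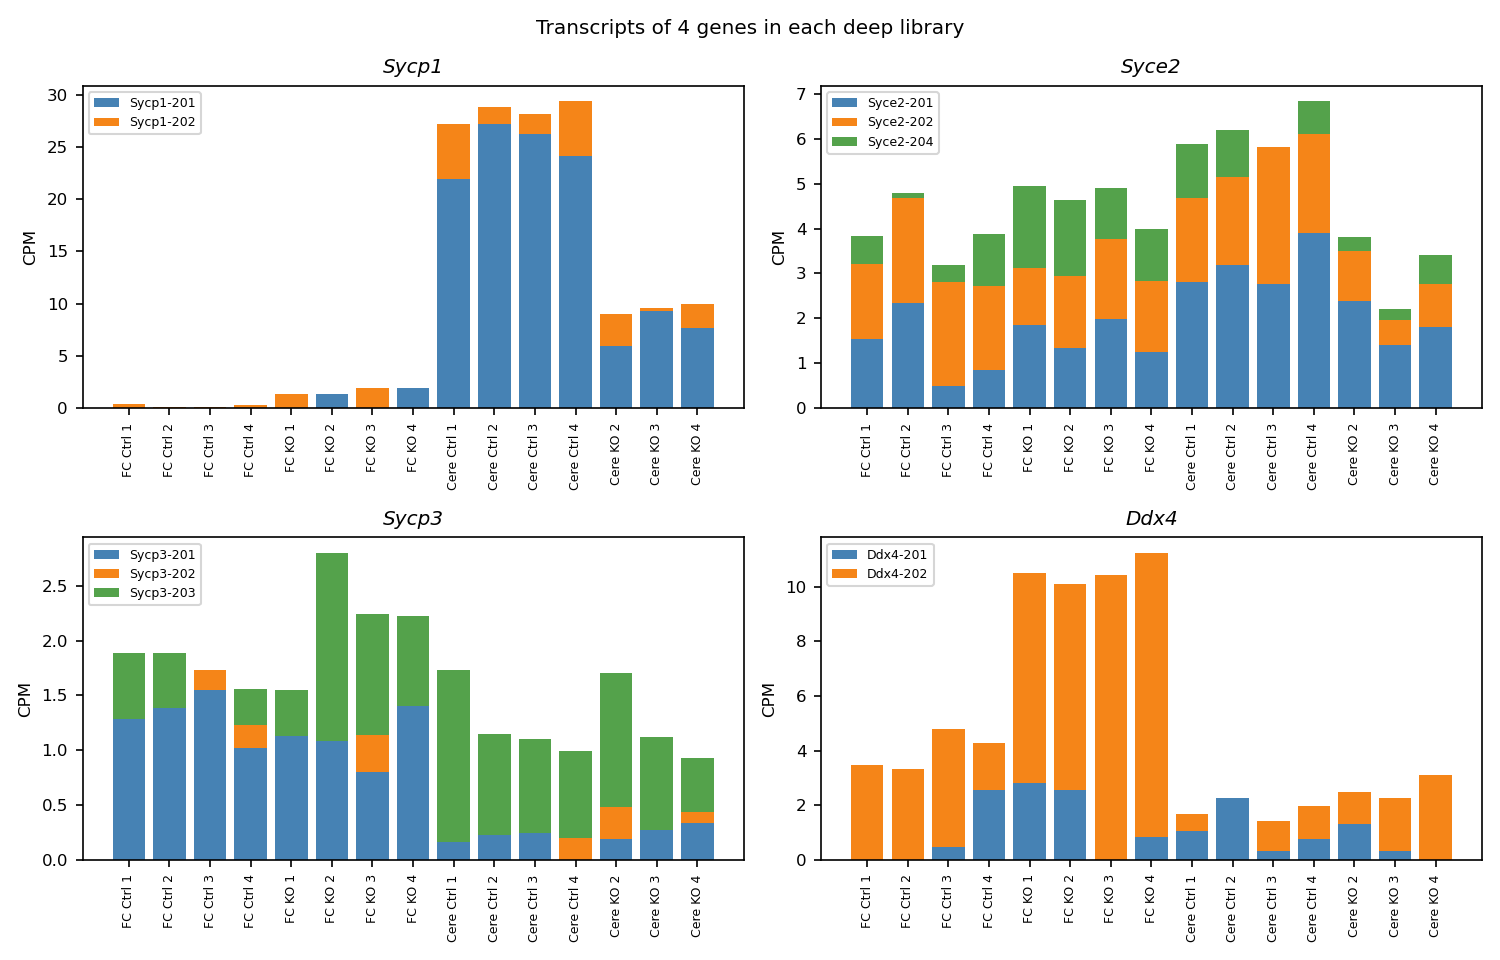
CPM of the named transcripts of Sycp1, Syce2, Sycp3 and Ddx4, stacked for each deep library; axes start at 0. Sycp1-201 and Sycp1-202 change places between replicates of FC Upf3b-KO, and Sycp3-203 makes up 78.0% to 91.0% of Sycp3 in Cere Ctrl.

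The remaining transcripts add little. Syce1-201 took 83.9% to 100% of Syce1 and Sycp2-201 60.9% to 100% of Sycp2 over the groups. Mael-201 took at least 93.8% of Mael in FC, and Mael-202, which lacks 42 coding bases, took all of it in 1 library, Cere Upf3b-KO replicate 3, at 0.908 CPM. Hormad1-201 and Hormad1-202 averaged 0.473 and 0.582 CPM in FC Upf3b-KO, with either at 0 in 1 of the 4 libraries. Dmc1-201 and Dmc1-202 averaged at most 0.187 and 0.138 CPM in any group.

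The members were set beside 84 other germline genes in 4 lists: chromosome axis and synapsis, meiotic recombination, piRNA pathway and germ granule, and germ cell identity and meiotic entry. These lists were drawn up with higher germline values in Upf3b-KO already seen in these data, so their counts and p-values are not independent evidence of that direction. In FC 51 of them passed the low-count filter, of which 22 were called higher, 1 was called lower and 28 were not called, beside 9.16% higher and 1.06% lower over all genes tested. Of the 22, 14 passed the filter only through their Upf3b-KO libraries, which favours a higher call. Their median log2 fold change was 0.62, beside 0.00 over all 18218 genes tested. The piRNA list had the most calls, 10 higher and 1 lower of 18 with a median of 1.48. Meiotic recombination had 6 higher of 18 (median 0.51), axis and synapsis 3 higher of 8 (median 0.54), and identity and entry 3 higher of 7 (median 1.10).

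Among the FC calls, Tdrd6, a tudor scaffold of the germ granule, went from 0.270 to 0.638 CPM in Ctrl to 6.80 to 8.40 CPM in Upf3b-KO (log2 fold change 3.89, SE 0.18). Piwil1, a PIWI protein that binds piRNAs, went from 0 to 0.360 CPM to 3.43 to 4.32 CPM (4.12, SE 0.34). Boll, of the DAZ family, went from 0.0290 to 0.150 CPM to 1.42 to 2.16 CPM (4.52, SE 0.40). These 3 passed the filter through Upf3b-KO alone, so they are given with no p-value. Gtsf1, a cofactor of PIWI proteins, rose by 2.86 (SE 0.18, adjusted p = 1.91e-11). Rnf17, another tudor protein, rose by 2.34 (SE 0.16, adjusted p = 5.305e-11). Outside the piRNA list, Stag3, a cohesin subunit of meiotic axes, rose by 2.73 (SE 0.20, adjusted p = 1.753e-10). Henmt1, which methylates piRNAs, was the 1 list gene called lower, from 1.63 to 2.96 CPM in Ctrl to 0.602 to 1.15 CPM in Upf3b-KO (-1.33, SE 0.25, adjusted p = 0.0001056).

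In cerebellum 38 list genes passed the filter, of which 9 were called higher, 1 lower and 28 not called, beside 10.3% higher and 2.86% lower over all genes tested. The median was 0.21 beside 0.01 over all 17785 genes. Of the 9, 6 passed the filter only through Upf3b-KO, which favours a higher call: Piwil1, Tex15, Pld6, Smc1b, Tdrd1 and Stag3. Those of them named here are given with no p-value. Axis and synapsis had 4 higher of 8 (median 0.97), the piRNA list 4 higher of 13 (median 0.25) and meiotic recombination 1 higher and 1 lower of 12 (median -0.24). Identity and entry had 0 called of 5 (median -0.16). Six6os1 (4930447C04Rik in the annotation), a central element gene, rose from 0.264 to 0.661 CPM to 2.81 to 3.61 CPM (log2 fold change 2.70, SE 0.25, adjusted p = 1.779e-08). Its FC value was -0.72 (SE 0.25, adjusted p = 0.02006), which was not called. Tex15, needed for silencing of transposons and for recombination, went from 0.0579 to 0.217 CPM to 0.965 to 1.44 CPM (2.96, SE 0.41). Pld6, of piRNA biogenesis, went from 0.0991 to 0.253 CPM to 0.823 to 1.26 CPM (2.43, SE 0.40).

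Smc1b, another meiotic cohesin subunit, had a log2 fold change of 2.86 in cerebellum (SE 0.65), and Tdrd1, a tudor protein, of 2.79 (SE 0.64), from Ctrl libraries of 0 to 0.198 and 0 to 0.206 CPM. Smc1b stood at 3.97 without Cere Ctrl replicate 3, and Tdrd1 at 3.97 without Cere Ctrl replicate 2. Stag3 had a log2 fold change of 1.77 (SE 0.39), which was 1.36 and no longer called without Cere Upf3b-KO replicate 3. Hfm1, a helicase of crossover formation, was the 1 list gene called lower with Sycp1's direction, from 1.36 to 2.29 CPM in Ctrl to 0.482 to 0.940 CPM in Upf3b-KO (-1.42, SE 0.29, adjusted p = 0.0003). The list genes called lower were 3 without Cere Upf3b-KO replicate 2, and 2 without Cere Ctrl replicate 2, Cere Ctrl replicate 3 or Cere Upf3b-KO replicate 4. With the shallow library included the calls were 4 higher and 2 lower, and with a minimum count of 20 they were 5 higher and 2 lower.

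**Figure D4:**
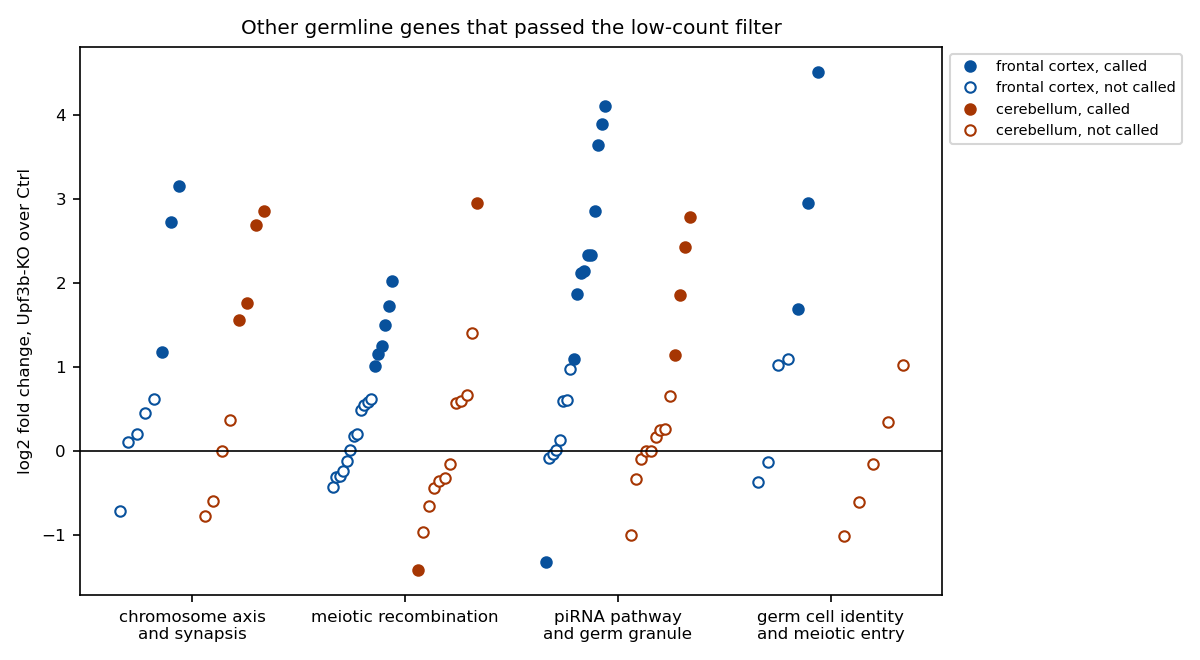
Log2 fold change of Upf3b-KO over Ctrl for each of the other germline genes that passed the low-count filter, by list, in FC (blue) and cerebellum (brown); filled points are called. In FC the piRNA list has 10 genes called higher, and in cerebellum 28 of the 38 points are open.

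Markers of other cell types moved with genotype in the same libraries. The 8 spermatid markers, among them the protamine genes Prm1 and Prm2, summed to 20.5 to 24.6 CPM in FC Ctrl and 165.5 to 175.1 CPM in FC Upf3b-KO, and to 1.01 to 1.21 and 10.3 to 11.8 CPM in cerebellum. The 7 choroid plexus markers, led by the transthyretin gene Ttr, summed to 20.5 to 21.6 and 2170 to 2222 CPM in FC, and to 32.5 to 36.7 and 1388 to 1409 CPM in cerebellum. The 6 ependymal markers summed to 17.4 to 19.2 and 42.4 to 44.2 CPM in FC, and to 11.7 to 12.6 and 24.7 to 26.1 CPM in cerebellum.

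Markers of Sertoli cells, Leydig cells and oocytes were also summed. The 6 Sertoli cell markers summed to 0.215 to 0.551 CPM in FC Ctrl and 0.717 to 1.31 CPM in FC Upf3b-KO. In cerebellum they summed to 0.0723 to 0.376 and 0.600 to 0.908 CPM. The sums were higher in Upf3b-KO without overlap in both regions, with Fshr at 0 in FC Ctrl, FC Upf3b-KO and Cere Ctrl. They rest on very low genes: from 3 to 5 of the 6 averaged under 0.1 CPM in each group, and none averaged 1 CPM. In FC Amh was lower in Upf3b-KO (0.0900 and 0.0471 CPM), whereas Dhh, Gata4, Rhox5 and Wt1 were higher. The 6 Leydig cell markers summed to 5.72 to 8.16 CPM in FC Ctrl and 11.6 to 13.6 CPM in FC Upf3b-KO, and to 6.44 to 7.48 and 7.60 to 9.35 CPM in cerebellum, where Hsd17b3 was at 0. Star, at 5.84 CPM in Cere Ctrl and 6.43 CPM in Cere Upf3b-KO, made up most of the cerebellar sum. There Cyp17a1 was lower in Upf3b-KO (0.0903 and 0.0480 CPM), whereas Star, Cyp11a1, Hsd3b6 and Insl3 were higher. The 7 oocyte markers summed to 1.17 to 2.17 CPM over all groups, with Oosp1 at 0 in each. The part of any of these cell types in the members' values was not tested.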

How the data were processed

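The deposited files hold 1 column per library of expected counts per Ensembl transcript, which the authors estimated with RSEM after quality filtering and alignment with STAR 2.5.2b to GRCm39 (Ensembl 105). The values are not scaled for depth or length, replicates were not pooled, and the strand setting and RSEM version were not given in the sources used here.

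Transcripts were matched to GENCODE genes (141102 of 142435 matched) and summed per gene. CPM was taken over the column total and TPM from the counts and annotated lengths. Expected counts were rounded and tested with edgeR 4.0.16 in R 4.3.3: TMM scaling, filterByExpr with a minimum count of 10 and total of 15, the quasi-likelihood F test with no covariates, and Benjamini-Hochberg adjustment over all genes tested. The SE is the log2 fold change divided by the square root of F. Each region was fitted alone, with adjusted p under 0.01 and over 2-fold as thresholds. DESeq2 1.42.0, median-of-ratios scaling, other filters, a looser threshold, the replicate number as a block, TPM, and leaving out each library were alternatives. Scripts were tested on simulated data. Depth was 27660078 to 35238677 counts in 15 libraries, and the precision of low genes is limited by counting; Cere Upf3b-KO replicate 1, at 64981 counts, was left out.

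The members and lists were chosen with earlier results of these data known. All 10 members and each transcript with a group mean of at least 0.1 CPM are named, as are up to 6 called genes per direction and region of the lists whose genotypes do not overlap, by adjusted p, the 5 genes most like Sycp1, and genes of at least 0.1 CPM overlapping a member. No correlation of the deviations of same-numbered libraries was above 0.0755. In the cerebellar gene fit, Ctrl replicates 2, 3 and 4 each correlated best with the Upf3b-KO library of the same number (0.0137, 0.0421 and 0.0755). These correlations are small and do not settle pairing, and the numbers were not taken to pair libraries.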

Additional observations from a re-analysis of the deposited data

Results flagged for a closer look

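In FC Ctrl the Mael level of replicate 4, 2.89 CPM, stood apart from the other 3 libraries, which lay between 1.77 and 1.85 CPM. It was the 1 value set apart in 28 groups of 4 libraries examined over the members, where chance sets apart about 1 group in 20.

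The log2 fold change of Sycp1 between Upf3b-KO and Ctrl was 2.59 in FC and -1.62 in cerebellum, a difference of -4.21 for cerebellum minus FC. Every Upf3b-KO library lay above Ctrl in FC and below Ctrl in cerebellum. The difference was not tested, because these contrasts chose the gene.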

How the results depend on the processing

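No called result changed sign under the alternatives run. Of those not called, Sycp3 in cerebellum (-0.06) was 0.13 with the replicate block and ran from -0.34 to 0.14 when 1 library was left out, and Sycp2 between Ctrl regions (0.07) ran from -0.11 to 0.27. With adjusted p under 0.05 and no fold limit, 9711 genes were called in FC, 11453 in cerebellum and 13406 between Ctrl regions, against 1861, 2339 and 4402. The same limit called 35 list genes in FC and 25 in cerebellum, against 23 and 10, and 6920 and 10025 transcripts, against 1362 and 2111. DESeq2 called 2755 transcripts in FC and 4190 in cerebellum. With the shallow library 6 list genes and 977 transcripts were called in cerebellum. With the replicate block 460 transcripts were called in FC and 553 in cerebellum; the gene and list counts stayed within 1.5 times. Leaving out 1 library gave 1354 to 1767 transcripts in cerebellum, where leaving out Upf3b-KO replicate 2, 3 or 4 gave 1388, 1365 and 1354, and 924 to 1120 in FC. It gave 7 to 12 list genes in cerebellum. The cause was not tested. Counts of transcripts moved more than counts of genes with DESeq2, the replicate block, the shallow library and 1 library left out. They did not with the looser limit, no filter or a minimum count of 20. A minimum count of 20 called 1536 genes and 1308 transcripts in FC, and 2020 and 2097 in cerebellum. No filter called 2483 genes and 1018 transcripts in FC, and 2880 and 1689 in cerebellum. Depth limits Hormad1, Dmc1 and the cerebellar level of Syce1.

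For single genes, the Syce2 call in cerebellum was lost without Cere Ctrl replicate 4 (-0.99) or Cere Upf3b-KO replicate 3 (-0.83), and that of Stag3 without Upf3b-KO replicate 3. In cerebellum Syce1, Smc1b and Tdrd1 no longer passed the filter, and so were not called, with a minimum count of 20 or with the shallow library, nor did Tex15 and Pld6 with the shallow library. Syce1 between Ctrl regions was lost with a minimum count of 20. Leaving out 1 library kept the Sycp1 log2 fold change between -1.66 and -1.59 in cerebellum and between 2.25 and 2.84 in FC. With TPM in place of CPM the log2 ratio of means was 0.52 instead of 0.41 for Dazl in FC, 0.01 instead of 0.31 for Dazl in cerebellum, 0.92 instead of 0.64 for Syce2 and -3.24 instead of -3.52 for Dazl between Ctrl regions, and 2.67 instead of 2.95 for Syce1 in FC.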

Other observations

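Between the Ctrl regions, 39 other germline genes passed the low-count filter, of which 7 were called higher in cerebellum and 11 lower, beside 9.18% higher and 15.9% lower over all genes tested. Of the 7, 2 passed only through cerebellum, and of the 11, 9 passed only through FC, Mei1 and Tex15 among them. The filter favoured a difference for these genes, so they are given with no p-value. Rec8, a meiotic cohesin subunit, averaged 12.7 CPM in Cere Ctrl and 1.34 CPM in FC Ctrl (log2 fold change 3.18, adjusted p = 8.197e-16 by edgeR), and Mybl1, a transcription factor of meiotic spermatocytes, 7.88 and 1.72 CPM (2.14, adjusted p = 3.859e-12). Mei1, needed for meiotic DNA breaks, averaged 0.0291 CPM in Cere Ctrl and 2.14 CPM in FC Ctrl (-5.97). Tex15 was also lower in Ctrl cerebellum, at 0.154 against 1.56 CPM (-3.40). These 4 genes were picked after their values were seen. Rec8 was lower in Cere Upf3b-KO than in Cere Ctrl, at 7.64 ± 1.10 CPM (SD, n = 3) against 12.7 ± 0.578 CPM (n = 4), a log2 fold change of -0.78 (SE 0.10), under the 2-fold limit.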
